A study of Macaca mulatta with 22 samples.

Results

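The genes of the cytosolic ribosome, the mitochondrial ribosome and the nuclear-encoded part of the respiratory chain were followed through the N6-methyladenosine (m6A) peaks of young rhesus macaque prefrontal cortex. They were chosen by symbol, as nuclear genes whose names begin with RPL or RPS and a digit, MRPL, MRPS, NDUF, SDH, UQCR, ATP5, or COX and a digit. The supplied table of Ensembl macaque gene names holds 246 such genes, and 33 of them had a peak in at least 1 animal, with 41 peaks in all, among 3658 genes and 9882 peaks outside the mitochondrial chromosome. Mitochondrial genes are part of the 3671 genes and of the list lengths used below as the background. The other 213 genes had no peak in any animal.

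The immunoprecipitated RNA came from the prefrontal cortex of 5 sevoflurane-exposed macaques (D and S1 male, F, S2 and S3 female) and 6 control macaques (A and B male, C, C1, C2 and C3 female), all labelled postnatal day 35. The exposed animals breathed about 2.5 to 3% sevoflurane, an inhaled anaesthetic, for 4 h on about postnatal days 7, 21 and 35, and the labels name no strain, carrier gas or sham procedure for the controls. The labels of the controls repeat the exposure text, and the groups here follow the treatment label. Each animal has its own list of peaks, which are stretches of RNA enriched by the m6A antibody. RNA levels were not analysed here, so a gene without a peak may be unmethylated or too little covered. The sevoflurane lists held 852 to 1673 peaks and the control lists 452 to 1210, a difference of 0.93 between the group means of log2 list length (exact permutation test over 462 splits, two-sided p = 0.0152). Neuronal markers carried peaks in 6 of 9 cases, among them the neurofilament gene NEFM and the synaptic vesicle gene SYP in all 11 animals. Astrocyte, oligodendrocyte and microglial markers had a peak in 1 of 5, 1 of 5 and 1 of 4 cases, each in 1 animal, and endothelial and blood markers in 0 of 4. The part that RNA level or cell makeup plays in these counts was not tested.

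m6A is laid down on mRNA as it is made, and in mammals it is found mostly in long exons and around stop codons, where reader proteins bind it and often shorten the life of the transcript. Ribosomal protein mRNAs are abundant, short and made of many small exons, and begin with a pyrimidine tract through which mTOR controls their translation. The mitochondrial ribosome is built from nuclear-encoded proteins and translates the mRNAs of the mitochondrial genome. Its products join nuclear-encoded subunits in complexes I, III, IV and V of the inner membrane, and the brain draws much of its ATP from them. Complex II is nuclear-encoded throughout.

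Peaks were sparse in this set. At least 1 animal had a peak in 33 of 246 genes (13.4%), against 3339 of 17787 other named genes (18.8%). The 33 count a gene named so by either source of symbols, and 31 remain when the supplied table's name is taken first. The gap was wider for peaks found in 2 or more animals, with 6 of 246 genes (2.44%) against 1495 of 17787 (8.41%). Among protein-coding genes the shares for 2 or more animals were 2.46% and 8.99%. These shares are a description of the lists, since genes are not replicates and neither length nor RNA level was matched.

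By structure, 9 of 74 cytosolic ribosomal genes had a peak (12.2%), as did 11 of 69 mitochondrial ribosomal genes (15.9%) and 8 of 71 genes of the respiratory chain and ATP synthase (11.3%). In the cytosolic ribosome these were 5 of 30 small-subunit genes and 4 of 44 large-subunit genes. In the mitochondrial ribosome they were 6 of 25 small-subunit genes and 5 of 44 large-subunit genes. Complex I had 5 of 32 genes with a peak, complex IV 2 of 15 and complex V 1 of 15. None of the 4 genes of complex II (succinate dehydrogenase) or the 5 of complex III carried one. Assembly factors added 2 of 21 genes, and 3 of 11 genes that only share the first letters of a ribosomal name, such as the kinase gene RPS6KB1, also had one.

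**Figure D1:**
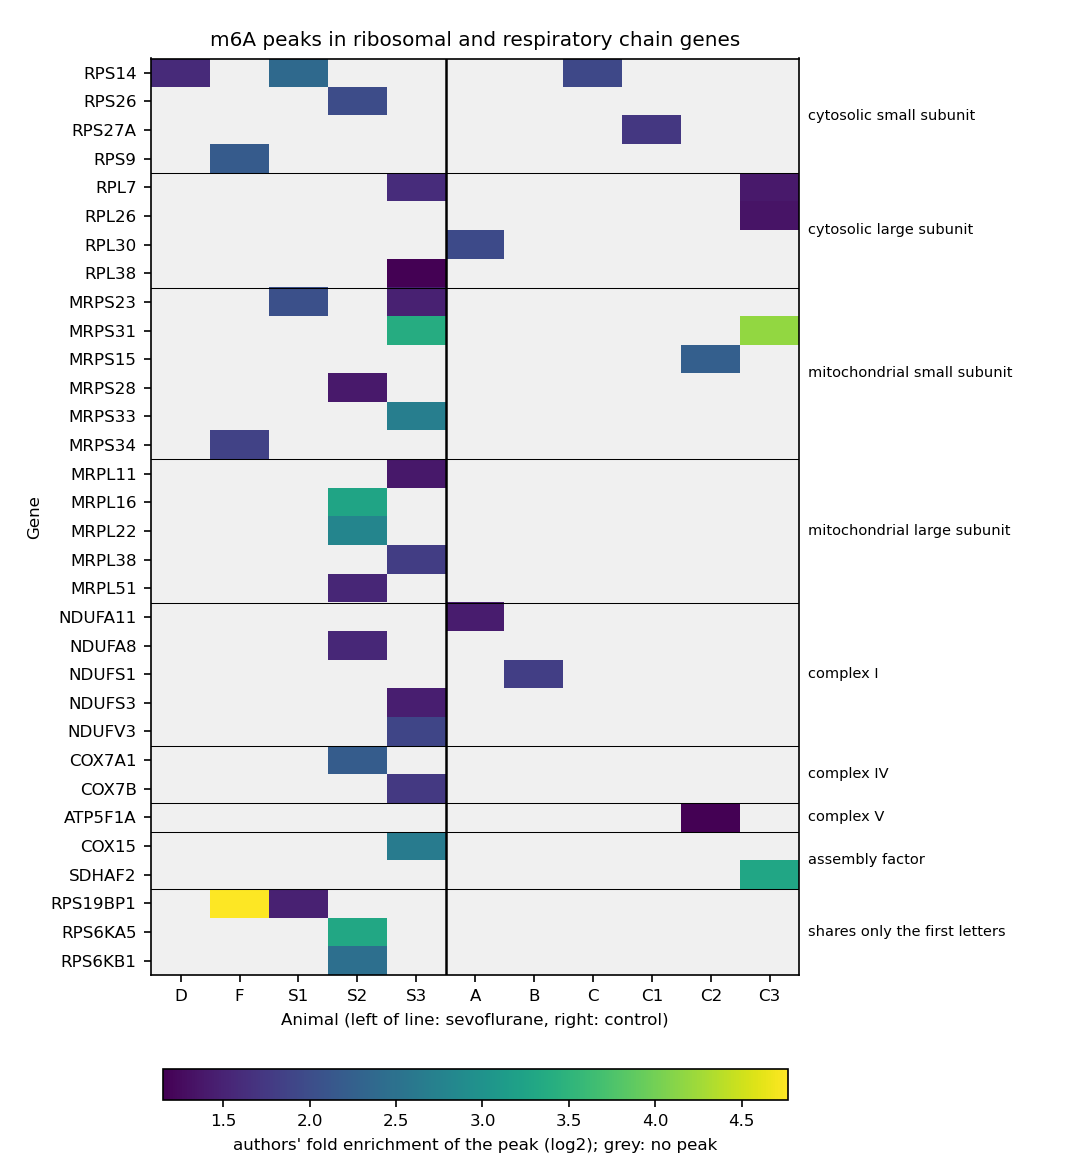
Fold enrichment (colour, log2 scale) of the peak in each ribosomal or respiratory chain gene (rows, by class) in each animal (columns, 5 sevoflurane animals left of 6 controls), in grey where the animal had no peak in the gene, and with 1 gene not drawn. Most rows hold 1 coloured cell, and those of S2 and S3 fill most of the sevoflurane side.

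Peaks in these genes seldom recurred. A peak was found in 1 animal for 27 of the 33 genes (81.8%), a share that was 55.9% over all 3671 genes. The remaining genes had peaks in 2 animals (4 genes) or 3 animals (2 genes), and none reached 4, while 81 of all genes (2.21%) had a peak in all 11 animals. Among the 55 pairs of animals, 7 shared at least 1 gene of the set. The lists of S2 and S3 had 494 genes in common, which is 36.6% of the genes of S2 and 44.5% of those of S3, but 0 genes of the set.

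**Figure D2:**
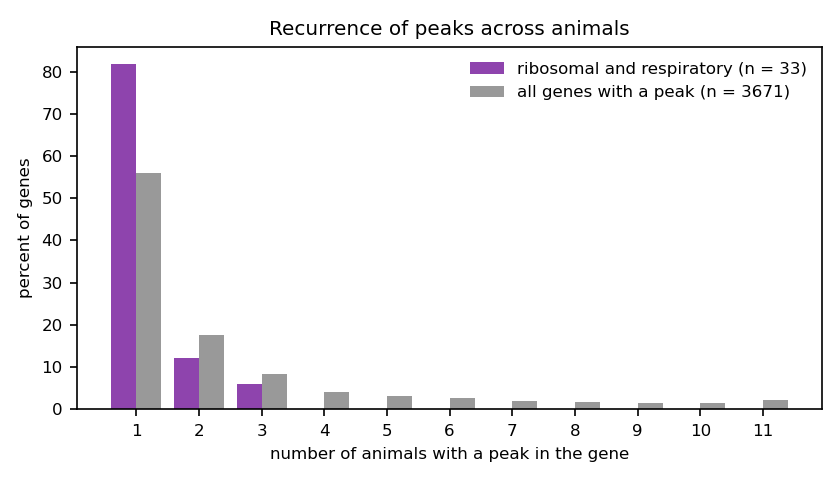
Percent of genes (y axis) by the number of animals with a peak in the gene (x axis) for the 33 ribosomal and respiratory chain genes with a peak and for all 3671 genes with a peak, the 33 included. The set ends at 3 animals, while 2.21% of all genes reach 11.

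RPS14, a protein of the platform of the small subunit, had the same 120 bp peak in D and S1 after sevoflurane and in control C. It lay in a single exonic block at chr6:148577863-148577982 (rheMac8, minus strand), 209 bp from the 5' end of a transcript that spans 8201 bp. Fold enrichment was 3.00 in D and 5.23 in S1 after sevoflurane, against 3.81 in control C, so the values of the groups overlapped. The counts of 2 of 5 exposed and 1 of 6 control animals gave p = 0.545 and an adjusted p of 0.901 by Fisher's exact test.

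RPL7, a large-subunit protein, had overlapping peaks of 3 exonic blocks in S3 after sevoflurane and in control C3. Fold enrichment was 3.05 in S3, against 2.64 in C3. The region was chr8:71539032-71540104 (rheMac8, minus strand), with its midpoint at 22.2% of the transcript's span in S3 and 21.7% in C3. Fisher's exact test gave p = 1 and an adjusted p of 1. The 41 peaks of the set formed 36 regions, of which 3 were shared between animals, those of RPS14 and RPL7 among them.

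The cytosolic ribosomal peaks that follow were each seen in 1 animal. RPS9, which lies at the mRNA entry site of the small subunit, had a 121 bp peak in sevoflurane animal F at chr19:49552068-49552188 (rheMac8, plus strand), with a fold enrichment of 4.54. The large-subunit gene RPL38 had the weakest enrichment of the set, 2.22 in S3, and the small-subunit gene RPS26 had 3.99 in S2. On the control side, RPS27A, which encodes ubiquitin fused to a small-subunit protein, had 3.33 in C1, and the large-subunit gene RPL26 had 2.53 in C3. The RPL30 peak of control A reached 3.89 and was placed by the annotation in SNORA72, a small nucleolar RNA gene. RPS and RPL genes have many near-identical processed copies in primate genomes, and the treatment of reads that fit several copies is not given in the sources used here, so the gene of origin of such a peak is uncertain.

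Among mitochondrial ribosomal genes, 10 of the 11 had a peak in a sevoflurane animal and 2 in a control, while over all 3671 genes with a peak 77.2% had one in a sevoflurane animal and 55.1% in a control. MRPS23, of the small subunit, was found in S1 (fold enrichment 4.09) and S3 (2.80) and in no control (Fisher's exact p = 0.182, the smallest that 2 animals allow, adjusted p = 0.606). Its peaks lay near opposite ends of the gene, at 4.59% of the span in S1 and 90.2% in S3. MRPS31, also of the small subunit, had a peak in S3 (10.5) and in control C3 (18.1), again at different places, 99.7% and 51.9% of the span (p = 1, adjusted p = 1 by Fisher's exact test). All 5 large-subunit genes had their peak in a sevoflurane animal and in no control, a pattern held by 44.9% of all genes, with MRPL11 and MRPL38 in S3 and MRPL16, MRPL22 and MRPL51 in S2. Of the remaining small-subunit genes, MRPS33 had a peak in S3, MRPS28 in S2, MRPS34 in F and MRPS15 in control C2. S2 or S3 held a peak in 9 of those 10 genes, all but MRPS34. These counts include genes of uncertain name. MRPS28 is TPD52 in the supplied table, MRPL16 is STX3 in the peak tables, and the MRPS34 peak was annotated to MAPK8IP3.

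Respiratory chain peaks were spread over 8 genes, each in 1 animal. In complex I, the core subunit gene NDUFS3 and the accessory subunit gene NDUFV3 had peaks in S3 (fold enrichment 2.75 and 3.76). In S2 the peak was in NDUFA8 (2.92). Those of controls were NDUFS1, which carries iron-sulphur clusters of the electron entry arm, in B (3.54), and NDUFA11 in A (2.68). Complex IV was represented by COX7A1, the heart and muscle form of its subunit, in S2 (4.61) and by COX7B in S3 (3.38). ATP5F1A, the catalytic head's alpha subunit of ATP synthase, had a peak in control C2 (2.24). All 8 peaks had a fold enrichment below the median of their own list. The assembly genes were COX15, for the synthesis of haem A, in S3 (6.29) and SDHAF2, for attaching flavin to complex II, in control C3 (9.81).

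The 3 genes that share only the first letters had 4 peaks, all in sevoflurane animals, beside 44.9% of all genes with peaks in that group alone. RPS19BP1, a nucleolar protein that binds RPS19, had the highest fold enrichment of the set, 27.2 in F, and a peak elsewhere in the gene in S1 (2.79), with none in controls (Fisher's exact p = 0.182, adjusted p = 0.606). RPS6KB1, the kinase of ribosomal protein S6 downstream of mTORC1, and RPS6KA5, a nuclear stress-activated kinase, each had a peak at the 5' end of the transcript in S2 (5.54 and 9.94).

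The comparison of sevoflurane with control animals asked whether these genes carried peaks more often after exposure. A peak was found in 2 genes of the set in D, 3 in F, 4 in S1, 9 in S2 and 12 in S3, against 2 in A, 1 in B, 1 in C, 1 in C1, 2 in C2 and 4 in C3. The groups overlapped at 2 to 4 genes, and S2 and S3 stood above every other animal. The means were 6 ± 4.30 genes after sevoflurane (SD, n = 5) and 1.83 ± 1.17 in controls (SD, n = 6), a difference of 4.17. Without S3 the difference was 2.67, and without both S2 and S3 it was 1.17. When the supplied table's name was taken first, RPS26 and MRPS28, both of S2, dropped out. The means were then 5.6 genes after sevoflurane and 1.83 in controls, a difference of 3.77. Males had 2 and 4 genes after sevoflurane against 2 and 1 in controls, and females had 3, 9 and 12 against 1, 1, 2 and 4.

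List length also differed between the animals, but did not follow these counts in each of them. Lists of 995, 1027, 1050 and 1111 genes in D, F, C3 and S3 held 2, 3, 4 and 12 genes of the set. Relative to the number of genes with a peak in the same animal, the set took 0.201% in D, 0.292% in F, 0.545% in S1, 0.667% in S2 and 1.08% in S3, against 0.358% in A, 0.201% in B, 0.222% in C, 0.246% in C1, 0.312% in C2 and 0.381% in C3. D and F lay within the control range and S1, S2 and S3 above it. The mean share was 0.557 ± 0.347% after sevoflurane (SD, n = 5) and 0.287 ± 0.0746% in controls (SD, n = 6), a difference of 0.270 percentage points. That difference became 0.140 without S3, 0.0594 without S2 and S3, and 0.0934 in males alone. When each list was reduced to its 452 strongest peaks by p-value, the means were 1.40 ± 1.14 genes after sevoflurane and 1 ± 0.632 in controls, the share differed by 0.0979 percentage points, and 11 genes of the set kept a peak in some animal. No p is given for these sums, since the genes were chosen with results of these data known.

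**Figure D3:**
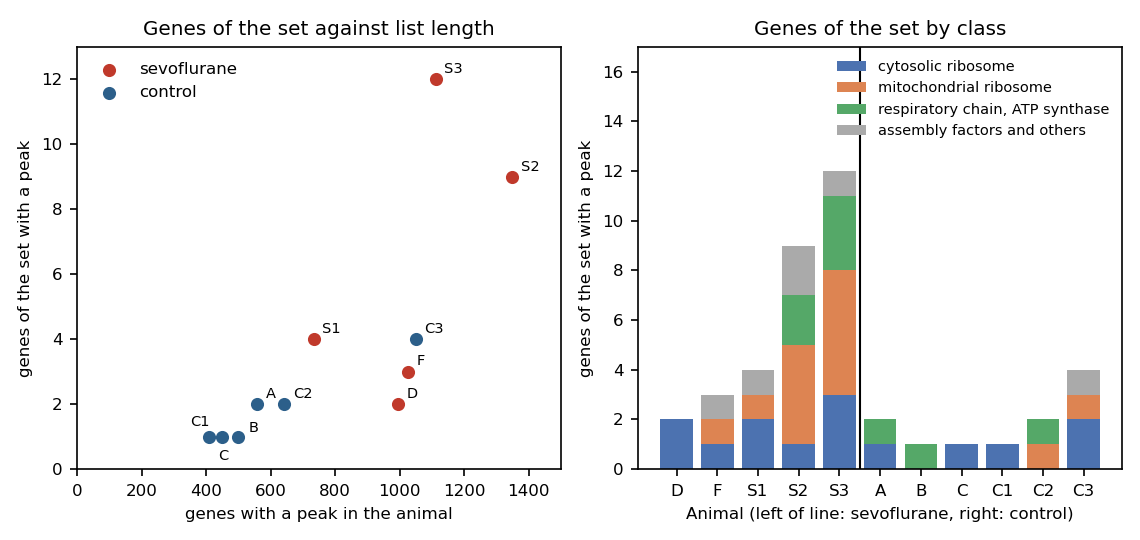
Left, ribosomal and respiratory chain genes with a peak (y axis) against all genes with a peak (x axis) in each of 5 sevoflurane and 6 control animals. Right, the same genes per animal split by class, with S2 at 9 and S3 at 12 above all others.

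By class, cytosolic ribosomal genes averaged 1.80 ± 0.837 per animal after sevoflurane and 0.833 ± 0.753 in controls. The means of mitochondrial ribosomal genes were 2.20 ± 2.17 and 0.333 ± 0.516, and those of respiratory chain genes 1 ± 1.41 and 0.5 ± 0.548 (SD, n = 5 and 6 in each). The ranges of the groups overlapped in each class. Respiratory chain genes numbered 0 in D, F and S1, 2 in S2 and 3 in S3, against 1 in A, B and C2 and 0 in C, C1 and C3. Their means were 0.5 in both groups without S3, and without S2 and S3 the direction turned, with 0 after sevoflurane and 0.5 in controls. Mitochondrial ribosomal genes numbered 0 in D, 1 in F and S1, 4 in S2 and 5 in S3, against 0 or 1 in each control. Their difference of 1.87 between the means became 1.17 without S3 and 0.333 without S2 and S3.

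Gene by gene, 22 of the 33 genes had a peak only in sevoflurane animals (66.7%, against 44.9% of all 3671 genes), 8 only in controls (24.2%, against 22.8%) and 3 in both groups (9.09%, against 32.2%). The 3 were RPS14, MRPS31 and RPL7. Of the 22, 17 genes were found only in S2 (9) or only in S3 (8), and these 17 are 51.5% of the set. Of all genes, 20.4% were found in S2, S3 or both and in no other animal. Of the 1486 genes found in 2 to 9 animals, Fisher's exact test placed 27 (1.82%) at an unadjusted p under 0.05, all more often after sevoflurane, and 0 after Benjamini-Hochberg adjustment (smallest adjusted p = 0.606). The 6 tested genes of the set included 0 of the 27, but this 0 was fixed beforehand. Each of the 6 had peaks in only 2 or 3 animals. With these group sizes, 2 animals give a p of at least 0.182 and 3 animals one of at least 0.0606. The test therefore cannot tell these genes from the rest. Of 1265 regions tested, 19 (1.5%) had an unadjusted p under 0.05 and 0 an adjusted one (smallest 0.61). The 3 shared regions of the set could not be among the 19, since each was found in only 2 or 3 animals.

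Peaks in the set were built differently from other nuclear peaks. In 28 of 41 (68.3%) the peak ran over more than 1 exonic block, against 36.4% of 9841 other peaks. The median length over exons was 120 bp, against 150 bp, and the longest was 233 bp, against 1678 bp. The annotated transcript around them spanned a median of 10311 bp, introns included, against 35068 bp. Enrichment was mostly below the middle of the lists, with a median fold of 3.64 against 5.98, and 30 of the 41 peaks below the median of their own list. This held for 13 of 14 cytosolic ribosomal peaks and 8 of 13 mitochondrial ribosomal peaks. A p-value of at most 1e-05 was reached by 17 of 41 peaks (41.5%), against 65.1% of the others.

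Position along the transcript could be read for 39 of the 41 peaks, as the midpoint of the peak between the ends of the annotated transcript. The first 20% of the span held 16 (41.0%, against 25.1% of 9333 other peaks), the middle 17 (43.6%, against 37.1%) and the last 20% 6 (15.4%, against 37.8%). Some of the 16, that of MRPS28 in S2 among them, had midpoints upstream of the annotated start. They were set to 0% of the span and so counted in its first 20%. The median position was 27.0%, against 65.3%. Cytosolic ribosomal peaks lay in the first 20% in 7 of 13 cases and in the last 20% in 1. The RPS14 peak of D, S1 and C gave 3 of these 7, so they stand for fewer genes. Further peaks of the 7 had midpoints upstream of the annotated start and count here only because they were set to 0%. For mitochondrial ribosomal peaks the first and last 20% held 5 and 4 of 12, and for respiratory chain peaks 1 and 0 of 8. Most respiratory chain peaks run over introns. With midpoints taken over exonic bases, NDUFA8 moved from 20.7% to 1.03% of the span and COX7B from 54.2% to 11.8%. Both then lay in the first 20%, and no respiratory chain peak left it. After sevoflurane 14 of 29 peaks lay in the first 20% and 4 in the last, and in controls 2 of 10 and 2. The 14 include peaks set to 0%, and the 2 in the first 20% in controls do not. For other peaks the shares in the first and last 20% were 25.5% and 38.1% after sevoflurane. In controls they were 24.6% and 37.3%. A peak that recurs in 1 gene is counted once per animal here, and the difference between the groups was not tested. Peaks whose 5' edge lay within 100 bp of the transcript's start numbered 5 (12.8%, against 10.5%). They lay in COX15, MRPL22, NDUFS3, RPS6KA5 and RPS6KB1. Peaks that began further upstream and ran past the start, such as that of RPL38, were not counted. The class 3' UTR in the deposited annotation stood on 10 peaks of the set, and 8 of those lay in the first 50% of the span, all in minus-strand genes such as RPS14 and RPL7, so these class names were not used for position.

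**Figure D4:**
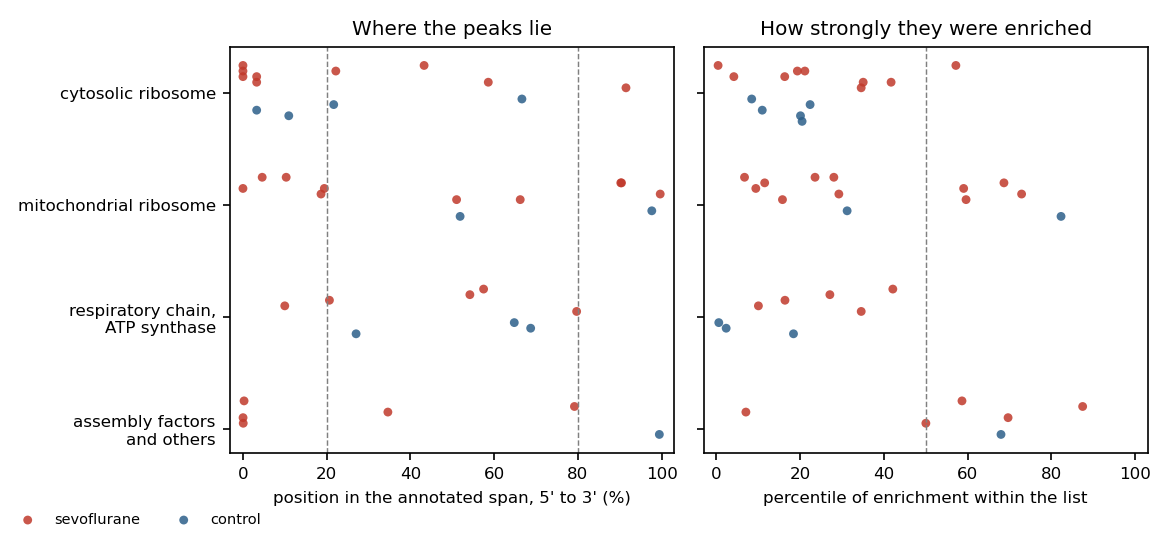
Position along the annotated transcript (left, percent of its span, 0 at the 5' end) and fold enrichment (right) as a percentile within the animal's own list for the peaks of ribosomal and respiratory chain genes, by class, with sevoflurane points above control points. Dashed lines mark 20% and 80% of the span and the 50th percentile. Peaks with a midpoint upstream of the annotated start are drawn at 0%. The set has 41.0% of its peaks in the first 20% and 15.4% in the last, and 30 of 41 peaks below the 50th percentile of enrichment.

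Genes of the neighbouring steps carried peaks to differing extents. Of all named genes outside the set, 18.8% had a peak in at least 1 animal and 8.41% in 2 or more. Translation elongation factors and other mRNAs with a pyrimidine tract had a peak in 2 of 18 genes, BTF3 in 2 exposed animals and 1 control, and EIF4B in 1 control. Ribosome biogenesis genes had one in 7 of 16, of which 4 were found in 2 or more animals. They included NCL, which encodes nucleolin, in all 11 animals. FBL, the methyltransferase fibrillarin of ribosomal RNA, had one in 4 of 5 exposed and 6 of 6 control animals. Genes of electron carriers, fuel oxidation and adenine nucleotide exchange had one in 13 of 25, of which 3 (IDH3B, IDH3G and ETFB) were found in 2 or more animals. A list of genes for the expression of mitochondrial DNA, with some for the assembly or membrane insertion of respiratory complexes, had one in 0 of 14. In all 4 lists, 0 genes had an unadjusted Fisher's exact p under 0.05 in either direction. Over all tested genes the share was 1.82%, in the direction of sevoflurane. Among the tested genes of these lists, all but POLR1A (4 of 5 exposed and 2 of 6 control animals) had peaks in only 2 or 3 animals. Such counts cannot give a p under 0.05 with these group sizes, so the 0 was nearly fixed beforehand.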

How the data were processed

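Sequencing of RNA fragments bound by an m6A antibody, from stranded libraries of total RNA, gave 1 peak list for each of 11 macaques. The 11 input samples were not analysed here. The tools cutadapt, Trim Galore 0.5.0, StringTie and HISAT2 2.1.0 appear in the submitters' processing notes, as does the rheMac8 build. The peak caller is not given in the sources used here. Per the file headers, each deposited row holds a peak's blocks, gene, p-value, log10 scores of the p-value and false discovery rate, fold enrichment (a ratio) and annotation class, all the authors' own values. Every p-value was at most 0.001 and every fold at least 2.06. Read counts are not part of the lists, so depth is unknown and no counting interval was computed. Each label names a separate animal, and their number limits the precision.

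Peaks on the mitochondrial chromosome (187 of 10069) entered no gene of the set and were left out of the comparisons of peak structure and position, but were kept in list lengths and in counts over all genes. A gene had a peak if the list called at least 1 in it. Symbols came from the peak tables or the supplied table of Ensembl names: 22 genes of the set were named alike by both, 3 by the peak tables alone and 3 by the supplied table alone. In 5 the names differed (RPS26 or ERBB3, MRPS28 or TPD52, MRPL16 or STX3, COX15 or LOC708964, COX7A1 or COX7AH), and either name was enough. The MRPS34 peak was annotated to MAPK8IP3. Of all 3671 genes, 186 had no symbol. Peak starts count from 0, so 1 was added. Regions joined peaks whose blocks shared at least 1 bp on a strand, and position was the midpoint's place in the annotated transcript's span, with 6 peaks that reach beyond it set to its ends where needed.

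Genes and regions in 2 to 9 animals were tested with two-sided Fisher's exact tests and Benjamini-Hochberg adjustment over all of them, and log2 list length with an exact permutation test, in Python 3.11.15 with SciPy 1.17.1, pandas 2.3.3 and numpy 2.4.6. Both were tested on simulated data. The genes of the set, the lists and the tests were chosen with earlier results of these data known. Named genes were RPS14, RPS9 and RPL7, those with a peak in 2 or more animals, and the others by class with their animal. The values of 1 gene of the set are not reported here, while the counts include it. Shares by length of all annotated genes were not computed, since no annotation of this build was supplied for genes without a peak. No sequence is printed for the same reason. Correlations of same-numbered animals' deviations from their group means were 0.0628 (S1 with C1), 0.000159 (S2 with C2) and 0.0234 (S3 with C3), so these numbers were not taken to pair the animals.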

Additional observations from a re-analysis of the deposited data

Results flagged for a closer look

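Control animal C3 stood apart from the other 5 controls in 3 counts by Dixon's test, out of 14 groups of values tested, of which chance flags about 1 in 20. Its list held 1210 peaks in 1050 genes, against 452 to 703 peaks in the other controls. It had peaks in 4 genes of the set (RPL7, RPL26, MRPS31 and SDHAF2), against 1 or 2 in each of the other controls. Without C3 the sevoflurane animals exceeded the controls by 4.60 genes of the set on average.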

How the results depend on the processing

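Of the results compared, only the respiratory chain mean changed direction, with S2 and S3 left out (a difference of -0.5 genes, against 0.5). With peaks of p at most 1e-05 alone, 15 genes of the set had a peak in any animal, an unadjusted p under 0.05 by Fisher's exact test was reached by 10 genes and 11 regions, and 0 peaks of the set lay in the last 20%. The difference per animal was then 1.2 genes and that of the share 0.108 percentage points. With lists of equal length (chosen for the last of these after seeing the data), the difference per animal was 0.4 genes and 0.0979 percentage points, 4 genes passed the unadjusted test, and 11 genes of the set had a peak in any animal. The log2 difference in list length was 0.80 in males (exact permutation p = 0.333, the smallest that 2 against 2 allows) and 1.04 in females (exact p = 0.0857), and 0.73 with the replicate block of C1 with S1, C2 with S2 and C3 with S3 (exact p = 0.25, the smallest for 3 pairs). In the block the set differed by 6 genes and 0.451 percentage points, and in males alone by 1.5 genes and 0.0934 points. With S2 and S3 both left out, an alternative chosen after seeing the data, the log2 difference in list length was 0.74 (exact p = 0.0833), the difference per animal 1.17 genes and 0.0594 percentage points, and 16 genes of the set had a peak in any animal. Leaving out each animal in turn gave 31 to 85 genes and 22 to 68 regions with an unadjusted p under 0.05, of which 0 to 1 gene belonged to the set. Leaving out any sevoflurane animal or C3 moved those counts by over 1.5 times, and the group sizes set which counts of animals can reach 0.05. The ranges were 24 to 33 genes of the set in any animal, 2.67 to 5.17 for the difference per animal, 0.140 to 0.359 percentage points for the share, 0.80 to 1.12 for log2 list length and 13.3 to 17.1% of peaks in the last 20%. In plus-strand genes alone, 25% of the peaks of the set lay in the last 20% (3 peaks). The other settings changed no call and moved no value by over 1.5 times: the annotation column's gene, subunits alone (28 genes), symbols of the peak tables alone or of the supplied table first, no filter on animals, 50% reciprocal overlap, cuts at 70% and 90% of the span, exonic midpoints and protein-coding genes. For exonic midpoints only the set's share in the last 20% was compared here, which was 20.5%. Unknown depth, the missing RNA level and 11 animals limit every count of peaks.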
